A study of Mus musculus with 20 samples.

Results

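The synaptic vesicle and exocytosis genes described here are 57 genes of 78258 identifiers in the count table, chosen by symbol alone: the 17 synaptotagmins (Syt), 15 syntaxins (Stx), 7 vesicle-associated membrane proteins (Vamp), 4 synaptosome-associated proteins (Snap23, Snap25, Snap29 and Snap47), 3 synapsins (Syn), 3 SV2 proteins, 4 complexins (Cplx) and 4 Rab3 GTPases. They held 1.10% of all counts. The RNA came from dorsal root ganglia (DRG), which house sensory neuron cell bodies, at lumbar levels of 10 male mice. Control mice (H62, H63, H65, H96 and H97) were Ahr f/f or f/+, carrying floxed Ahr, which encodes the aryl hydrocarbon receptor (AhR), with no Cre named. The conditional knockout (cKO: H61, H64, H95, H99 and H100) was Ahr fl/fl with Thy1CRE-ERT2/EYFP, a Cre recombinase switched on by tamoxifen together with a yellow fluorescent reporter; the Thy1 promoter is used to drive expression in neurons. The Cre and reporter came with the deletion, so their effects cannot be told apart. Mice of both genotypes received tamoxifen (100 mg/kg daily, 5 days) at 17 weeks of age, had a sciatic nerve transected 4 weeks later, and gave L4 to L6 ganglia 1 day after that. Each mouse gave a library from the contralateral ganglia and a library from the ipsilateral, axotomised ganglia, which made 4 groups of 5 libraries. A label field names spinal cord injury; the protocol describes the nerve lesion, and no unoperated mice were analysed here. Lists of values below follow the order of mice just given.

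In vesicle release, a SNARE protein of the vesicle (Vamp) zips together with SNAREs of the target membrane (a syntaxin and a Snap protein), synaptotagmins sense calcium and trigger fusion, and complexins hold the partly assembled machinery ready. Synapsins tether vesicles in the reserve pool, SV2 proteins are vesicle membrane glycoproteins, and Rab3 GTPases take part in docking. Sensory neurons make these proteins in the cell body and ship them along the axon branches, and the same machinery releases neuropeptide granules and adds membrane to growing axons. Syntaxins of the endosome, Golgi and endoplasmic reticulum serve traffic in every cell.

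The libraries held 76.2 to 118.5 M counts, and pairs of replicates spread beyond counting noise (chi-square per degree of freedom 5.11 to 55.3 over 40 pairs). That spread includes differences between mice, and what limited precision for single members was not tested. Counts carry no molecular identifiers, and any interval from them would cover counting error only. Atf3, a marker of axotomised sensory neurons, rose from 11.4 ± 1.81 to 426.5 ± 12.8 CPM in control mice (counts scaled to library size, mean ± SD, n = 5); cKO mice went from 9.24 ± 0.630 to 416.9 ± 40.0 CPM. Ahr was at 24.2 ± 2.10 CPM in control and 20.4 ± 0.536 CPM in cKO contralateral ganglia (log2 fold change -0.25, adjusted p 0.103), in RNA of all cells of the ganglion. The summed level of 15 sensory neuron markers ranged from 12710 to 15250 CPM over the 20 libraries, so the tissue carried the markers of its label. Of these 15 markers, 4 were lower after injury in each genotype and none was higher. The summed fibroblast markers were less even: contralaterally they spanned 666.8 to 1198 CPM in control and 802.6 to 1733 CPM in cKO ganglia. Summed muscle markers ranged from 2.69 to 608.9 CPM in 19 libraries and stood at 1592 CPM in the contralateral library of cKO mouse H100. Without H100, 16 members were called (adjusted p under 0.05) after injury in cKO mice in place of 22, beside 26.4% of all genes in place of 31.3%. Between genotypes contralaterally 0 members were called in place of 1. The counts of members were the same without H95 (26% of all genes after injury), whose contralateral muscle sum was 59.3 CPM. In bulk RNA, fewer cells of a type and less RNA per cell cannot be told apart, which holds for every result below.

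Of the 57 genes, 52 had enough counts to be tested. The other 5 were Cplx3, Cplx4, Stx19, Syt8 and Vamp9, with 94, 30, 14, 107 and 102 counts over all 20 libraries together. Levels between genes were compared as CPM per kilobase of merged exons in the control contralateral ganglia (mean ± SD, n = 5). Cplx1, a complexin, was highest at 394 ± 21.4, followed by Syt11, a synaptotagmin without calcium binding, at 235 ± 10.8. Rab3a was next at 173 ± 9.68. The next levels, Snap25 at 147 ± 9.31, Syn1 at 137 ± 7.22 and Vamp2 at 135 ± 4.40, did not differ beyond their spread. Syt4 stood at 103 ± 2.75 and Sv2c at 82.3 ± 6.07, the latter within its spread of Cplx2 (78.7 ± 2.81) and Snap47 (77.6 ± 2.77). Of the calcium sensors of fast release, Syt2 at 55.1 ± 5.00 and Syt9 at 53.8 ± 1.55 did not differ beyond their spread, and Syt1 was lower at 40.2 ± 1.81. Among isoforms, Vamp2 exceeded Vamp1 (51.8 ± 3.23) on this scale, and Sv2c exceeded Sv2b (41.0 ± 2.49) and Sv2a (15.6 ± 0.917). Before division by exon length (10167 bases for Vamp1, 3809 for Vamp2), Vamp1 at 527 ± 32.8 and Vamp2 at 515 ± 16.7 CPM did not differ beyond their spread. Syt1 at 335 ± 15.1 CPM then stood above Syt9 at 214 ± 6.17 CPM, the reverse of their order per kilobase. The lowest tested members were Syt17 at 0.470 ± 0.0594 and Syt10 at 0.606 ± 0.0670. These levels rest on exon lengths of GENCODE M21, which may not be the annotation the authors counted with.

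**Figure D1:**
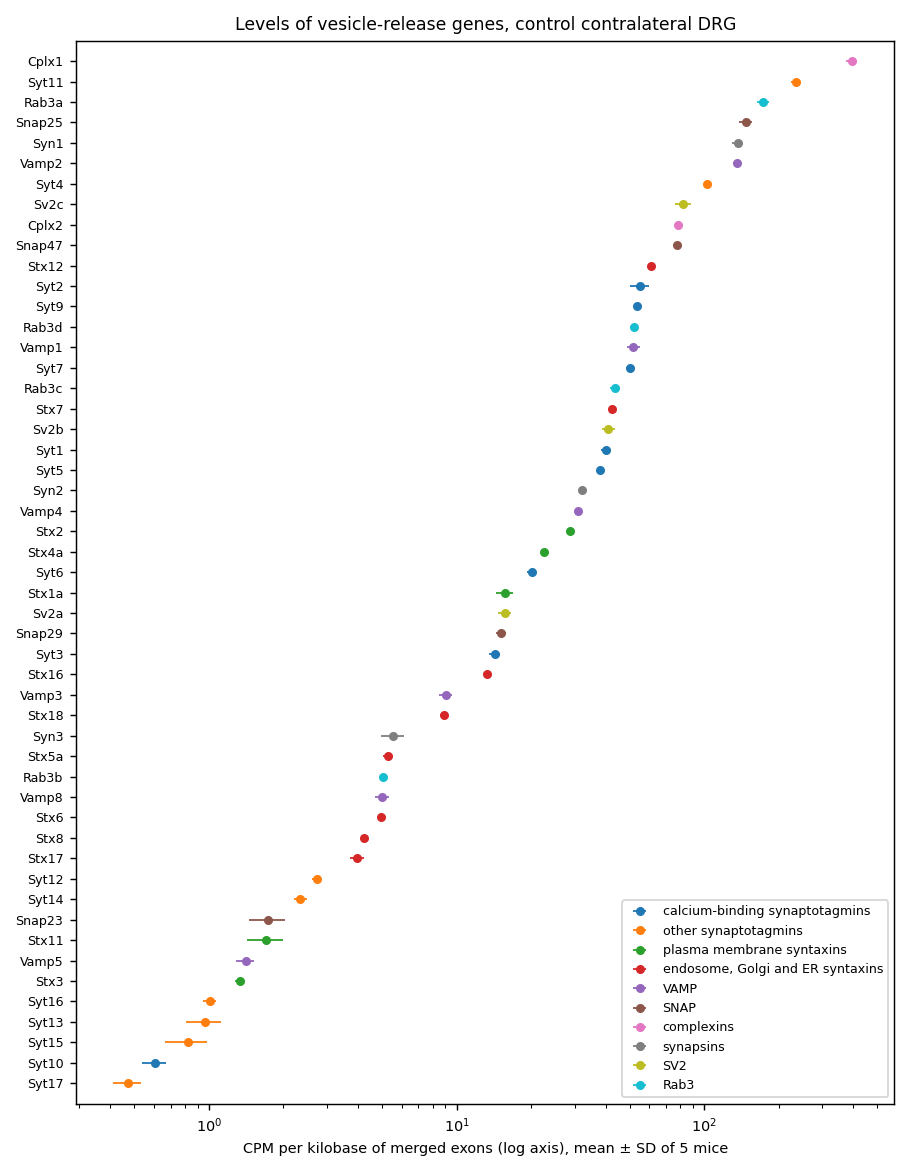
Levels of the tested genes reported by name in control contralateral ganglia, in CPM per kilobase of merged exons on a log axis, with points for the mean and bars for the SD of 5 mice and colours for the roles. Cplx1, Syt11 and Rab3a head the order, and Syt10 and Syt17 close it.

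Promoter sequences are shown for 2 members that rose after injury and 2 calcium-binding synaptotagmins that fell in control mice, to set their sequence beside the values that follow. RefSeq (GRCm38.p6) promoters were matched for 45 of the 57 members, and the 250 bases before the start were searched on both strands for AP-1 sites (TGANTCA), the cAMP response element (TGACGTCA) and the core of the AhR response element (GCGTG). Capitals mark these motifs. Stx11 (chr10:12964260-12964509, minus strand) and the first promoter of Stx5a (chr19:8741174-8741423, plus strand) hold 1 GCGTG core each. The second promoter of Syt2 (chr1:134709050-134709299, plus strand) holds 1 AP-1 site and 2 adjacent GCGTG cores on opposite strands. Syt9 (chr7:107370540-107370789, plus strand) holds none of the 3 motifs. Not shown are the second promoter of Stx5a, with none of the 3 motifs, and the first promoter of Syt2, with 3 GCGTG cores.
Stx11: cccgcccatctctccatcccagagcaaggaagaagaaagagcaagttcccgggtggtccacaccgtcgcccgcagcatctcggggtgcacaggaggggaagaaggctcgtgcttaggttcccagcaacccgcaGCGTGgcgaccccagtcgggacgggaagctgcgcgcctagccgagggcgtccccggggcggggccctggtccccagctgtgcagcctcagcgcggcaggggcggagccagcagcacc
Stx5a: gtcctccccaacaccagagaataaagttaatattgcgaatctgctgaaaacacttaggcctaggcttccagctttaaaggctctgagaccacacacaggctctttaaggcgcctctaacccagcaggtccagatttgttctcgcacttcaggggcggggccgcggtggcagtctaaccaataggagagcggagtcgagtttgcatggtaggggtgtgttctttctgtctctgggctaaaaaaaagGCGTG
Syt2: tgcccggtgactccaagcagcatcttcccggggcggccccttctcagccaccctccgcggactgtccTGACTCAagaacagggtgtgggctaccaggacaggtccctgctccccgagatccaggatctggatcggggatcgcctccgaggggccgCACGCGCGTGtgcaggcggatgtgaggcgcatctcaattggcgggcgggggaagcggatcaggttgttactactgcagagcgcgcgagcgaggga
Syt9: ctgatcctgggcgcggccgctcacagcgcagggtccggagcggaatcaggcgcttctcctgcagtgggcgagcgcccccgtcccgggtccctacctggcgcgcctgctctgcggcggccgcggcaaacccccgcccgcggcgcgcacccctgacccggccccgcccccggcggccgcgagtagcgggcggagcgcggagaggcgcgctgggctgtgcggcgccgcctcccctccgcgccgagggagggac
An AP-1 site was found in 3 of 45 members (6.67%), against 7.82% of 27025 genes with a promoter, and the cAMP response element in Syn1 only, against 1.77% of genes. The members with an AP-1 site were Syt2 and the untested Syt8 and Vamp9. The GCGTG core was found in 22 of 45 members (48.9%), against 30.9% of all genes, where a match in any promoter of a gene counted. Counted by promoter, the shares were 39.3% of 61 for members and 28.2% of 32851 for all genes. Member promoters were also richer in G and C, at 58.7% against 53.2%. A match describes these letters and is not a binding site, and its part in any change below was not tested.

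Injury responses were compared first, ipsilateral against contralateral ganglia within each genotype. After transection in control mice, 19 of the 52 tested members fell and 6 rose, while in cKO mice 10 fell and 12 rose. The cKO balance depended on the fit: with mice as a block 16 fell and 12 rose, without H64 12 fell and 7 rose, and without H95 or H100 8 fell and 8 rose. Of all genes, 31.6%, 24.9%, 26% and 26.4% were called in these fits, in that order. The risers shared by both genotypes included Stx11, Syt4, Syt12, Stx5a and Stx7, and the shared fallers were Syt3, Syt7, Syt10, Syt16, Sv2b, Cplx2, Rab3a and Stx8. No member was called in opposite directions. Summed satellite glia markers went from 1621 ± 67.4 to 1863 ± 88.1 CPM in control mice, without overlap, and from 1708 ± 130.2 to 1722 ± 80.7 CPM in cKO mice, with overlap. Of the 6 glial markers 2 were called higher in each genotype, and their part in the members' counts was not tested. Except for Stx11, the changes were below 1 on the log2 scale. A call is an adjusted p under 0.05 in edgeR's quasi-likelihood test over 28564 genes.

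The background was high. In control mice 29.9% of all tested genes were called (13.8% higher and 16.0% lower), against 25 of 52 members. In cKO mice 31.3% of all genes were called (16.2% higher and 15.1% lower), against 22 of 52 members. Well-measured genes were called more often: at a mean of at least 5 CPM, 43.5% (control) and 45.5% (cKO) of all such genes, beside 51.1% and 44.7% of the 47 members at that level. The median log2 fold change of the members was -0.03 in each genotype, beside -0.0047 in control and -0.03 in cKO mice for all genes. Ranges of the 5 contralateral and 5 ipsilateral libraries did not overlap for 22 members in control mice (23.6% of all genes) and 12 in cKO mice (20.2% of all genes). Of these, 7 lay above and 15 below in control mice (11.3% and 12.3% of all genes), and 7 above and 5 below in cKO mice (11.9% and 8.32%). With mice as a block the count was 26 in control mice (7 higher, 19 lower), beside 30% of all genes. In cKO mice it was then 28 (12 higher, 16 lower), beside 31.6%. With each genotype fitted on its own libraries the count in cKO mice was 14 (9 higher, 5 lower), beside 26.2%. In control mice the count fell to 13 without H63 (5 higher, 8 lower), beside 23.7% of all genes. It fell to 16 without H96 (6 higher, 10 lower) and to 15 without H97 (7 higher, 8 lower), each beside 24%. Within each of the 2 ranges of mouse numbers (61 to 65 and 95 to 100), the mean response of every called member kept its sign in both genotypes. The members were called on these same mice, so this agreement was largely set by that choice and is no separate test.

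**Figure D2:**
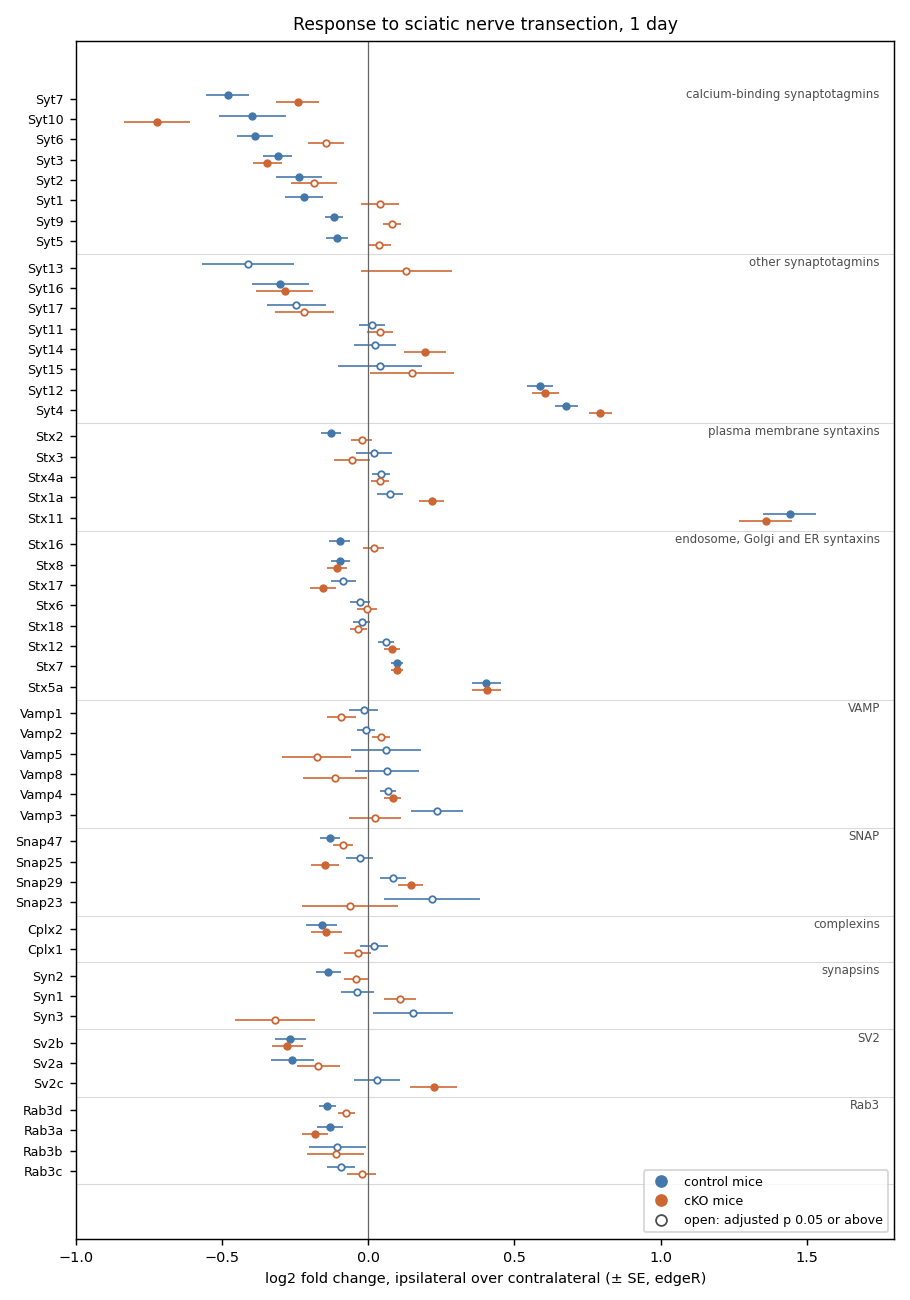
Log2 fold change of the tested members reported by name, ipsilateral over contralateral ganglia, by role, with SE bars from the edgeR fit (blue, control; orange, cKO; open points, adjusted p of 0.05 or above). The calcium-binding synaptotagmins lie left of 0 in control mice, and Stx11, Syt4, Syt12 and Stx5a stand to the right in both genotypes.

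The calcium-binding synaptotagmins, which trigger fusion when calcium binds their C2 domains, were all lower after injury in control mice: 8 of 8 fell (16.0% of all genes), with a median log2 fold change of -0.27. In cKO mice 3 of 8 fell (15.1% of all genes), Syt3, Syt7 and Syt10, with a median of -0.17. Syt7 (ENSMUSG00000024743.17), the high-affinity sensor of asynchronous release and of lysosome and granule fusion, was at 362, 369, 367, 381 and 395 CPM contralaterally and 267, 258, 288, 260.2 and 269.8 CPM ipsilaterally in control mice. In cKO mice Syt7 was at 364, 279.7, 300.4, 405 and 332 CPM contralaterally and 277, 249.6, 292, 299 and 304 CPM ipsilaterally. The sides did not overlap in control mice, while in cKO mice the contralateral values of H64 and H95 reached down into the ipsilateral range. Syt7 fell in control (log2 fold change -0.48, SE 0.0750, adjusted p 4.60e-05) and in cKO mice (log2 fold change -0.24, SE 0.0749, adjusted p 0.0174).

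Syt6, a member of the Syt3 subfamily that forms disulfide-linked dimers, was at 126, 115, 116, 112 and 118 CPM contralaterally and 88.9, 87.2, 93.5, 89.8 and 88.6 CPM ipsilaterally in control mice, with no overlap of the sides (log2 fold change -0.39, SE 0.0621, adjusted p 5.62e-05). In cKO mice the values were 105, 92.5, 91.2, 122.6 and 94.8 CPM contralaterally and 88.1, 85.7, 90.4, 97.8 and 95.5 CPM ipsilaterally, and the sides overlapped (-0.14, adjusted p 0.0842). Syt3, of the same subfamily, was at 41.8, 44.2, 42.8, 46.9 and 46.9 CPM contralaterally and 36.6, 37.3, 33.6, 37.4 and 34.7 CPM ipsilaterally in control mice. Its values in cKO mice were 45.4, 43.0, 39.9, 48.3 and 43.3 CPM and 34.8, 32.3, 33.5, 36.7 and 35.8 CPM. The sides of Syt3 did not overlap in either genotype, and it fell in control (log2 fold change -0.31, SE 0.0495, adjusted p 5.13e-05) and cKO mice (log2 fold change -0.35, SE 0.0495, adjusted p 1.41e-05). Syt10, a rare synaptotagmin known for growth factor secretion in the olfactory bulb, was at 1.04, 0.980, 1.09, 1.29 and 1.20 CPM contralaterally and 0.904, 0.759, 0.979, 0.862 and 0.752 CPM ipsilaterally in control mice. In cKO mice Syt10 was at 1.5, 1.12, 1.34, 1.41 and 1.29 CPM and 0.849, 0.678, 0.862, 0.924 and 0.717 CPM. Syt10 was low throughout, its sides did not overlap in either genotype, and it fell in control (log2 fold change -0.40, SE 0.114, adjusted p 0.0110) and in cKO mice (log2 fold change -0.72, SE 0.113, adjusted p 4.01e-05).

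Syt1, Syt2 and Syt9 are the sensors of fast synchronous release. Syt1 was at 354, 324, 329, 319.7 and 348 CPM contralaterally and 303, 282, 296, 284 and 273 CPM ipsilaterally in control mice, without overlap (log2 fold change -0.22, SE 0.0666, adjusted p 0.0156). In cKO mice Syt1 was at 307, 234, 279, 339.8 and 299 CPM contralaterally and 279.8, 296, 304, 302 and 319 CPM ipsilaterally, with the contralateral value of H64 lowest (0.04, adjusted p 0.705). Syt2 was at 372, 430.2, 450.4, 392 and 461 CPM contralaterally and 357, 370.3, 351, 350.3 and 357 CPM ipsilaterally in control mice (log2 fold change -0.24, SE 0.0787, adjusted p 0.0270). For Syt2, the cKO values (422, 374, 331, 482 and 362 CPM and 344, 345, 329, 382 and 330.5 CPM) overlapped (-0.19, adjusted p 0.0794). Syt9 was at 224, 214, 209.9, 211 and 209.6 CPM contralaterally and 196, 195, 204, 196 and 194 CPM ipsilaterally in control mice, and every ipsilateral value lay below every contralateral one (log2 fold change -0.12, SE 0.0309, adjusted p 0.00553). In cKO mice Syt9 was at 194, 176, 181, 199.8 and 183 CPM and 196, 199, 199, 196 and 198 CPM, with the ipsilateral libraries higher in 4 of 5 mice (0.08, adjusted p 0.0547). Syt5, a sensor on dense-core vesicles, was at 87.7, 89.4, 93.0, 93.9 and 89.9 CPM contralaterally and 82.5, 80.7, 90.4, 87.0 and 81.0 CPM ipsilaterally in control mice, a small fall with overlapping sides (log2 fold change -0.11, SE 0.0386, adjusted p 0.0415). For Syt5, the cKO values were 89.2, 79.7, 87.7, 89.3 and 85.8 CPM and 87.3, 83.8, 90.1, 88.1 and 94.0 CPM (0.04, adjusted p 0.507).

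Per mouse, all 8 genes were lower on the ipsilateral side in 5 of 5 control mice. In cKO mice this held for Syt2, Syt3, Syt7 and Syt10, while Syt6 was lower in 4 of 5, Syt1 and Syt5 in 2 of 5 and Syt9 in 1 of 5. The 8 genes were called lower on these same control mice. Their agreement there was largely set by that choice and is no separate test. The difference between the genotypes' responses was positive for 6 of the 8, and none passed the adjusted test. It was also positive for 15108 of all 28564 genes, and for 8140 of the 13829 at 5 CPM or more. At an unadjusted p under 0.05 stood 5 of the 8 (Syt1, Syt5, Syt6, Syt7 and Syt9), beside 9.80% of all genes and 13.7% of those at 5 CPM or more. With mice as a block, 5 of 8 fell in cKO mice, with Syt2 (-0.18, adjusted p 0.0214) and Syt6 (-0.14, adjusted p 0.0396) added. Of all genes, 31.6% were then called in either direction. Fitted on the cKO libraries alone, the count was 2 (26.2% of all genes called in either direction). Syt7 was not called there (adjusted p 0.115), nor was it with no filter (adjusted p 0.0850). In control mice the count of 8 fell to 4 without H63, to 5 without H96, to 4 without H97, and to 5 with no filter on low counts, where Syt1, Syt2 and Syt5 were not called (adjusted p 0.0610, 0.108 and 0.128). Of all genes, 23.7%, 24%, 24% and 12.6% were called in these fits, in that order. Syt5 was also not called with RLE size factors or on the control libraries alone. Control calls were lost for Syt1 without H63 or H97 (-0.21 to -0.17), for Syt2 without H63, H65, H96 or H97 (-0.25 to -0.19), for Syt5 without H61, H62, H63, H95, H96, H97 or H99 (-0.11 to -0.08), for Syt9 without H63 (-0.10) and for Syt10 without H96 or H97 (-0.34 to -0.31), values in parentheses being log2 fold changes. In cKO mice Syt7 lost its call without H61 (-0.20), Syt2 was called without H95 (-0.22), and Syt9 was called higher without H61, H65, H97 or H99 (0.08 to 0.11), with DESeq2, with RLE size factors, with no filter and at a mean of at least 1 CPM.

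**Figure D3:**
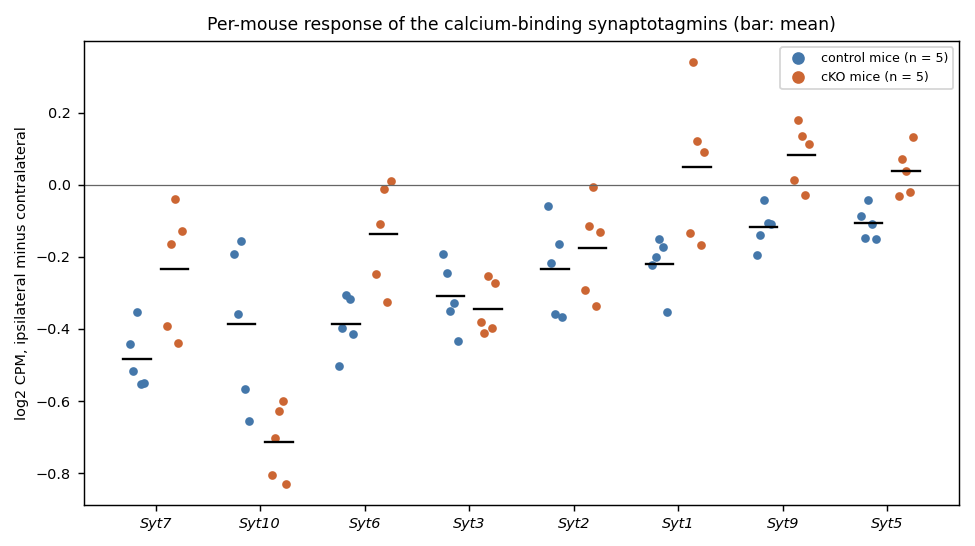
Response of the 8 calcium-binding synaptotagmins in each mouse, as log2 CPM of the ipsilateral minus the contralateral library (points, 5 mice per genotype; bars, means). All 5 control mice lie below 0 for every gene, while the cKO mice lie on both sides of 0 for Syt1, Syt5, Syt6 and Syt9.

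Among the other synaptotagmins, 2 of 8 tested rose and 1 fell in control mice (13.8% and 16.0% of all genes), and 3 rose and 1 fell in cKO mice (16.2% and 15.1%). Syt4 (ENSMUSG00000024261.7), an activity-induced synaptotagmin of dense-core vesicles whose first C2 domain does not bind calcium, had the highest level of the risers. It was at 400.0, 399, 405, 383 and 412 CPM contralaterally and 650.3, 638, 634, 661 and 613 CPM ipsilaterally in control mice. In cKO mice Syt4 was at 376, 341, 359, 398 and 363 CPM and 622, 692, 636, 615 and 622 CPM. Every ipsilateral library lay above every contralateral one, in control (log2 fold change 0.68, SE 0.0396, adjusted p 3.48e-11) and in cKO mice (log2 fold change 0.79, SE 0.0396, adjusted p 2.37e-12). Syt12, which is phosphorylated by protein kinase A and does not bind calcium, was at 14.3, 15, 16.0, 14.6 and 15.6 CPM contralaterally and 21.4, 22.96, 23, 23.7 and 22.2 CPM ipsilaterally in control mice. For Syt12, the cKO values were 15.1, 13.8, 15.2, 16.0 and 16.0 CPM and 23.5, 24.1, 23.02, 23.7 and 21.6 CPM. The sides again did not overlap, in control (log2 fold change 0.59, SE 0.0455, adjusted p 2.93e-09) or cKO mice (log2 fold change 0.61, SE 0.0455, adjusted p 1.40e-09). Exons on the opposite strand overlap 14.5% of the exon bases of Syt4 (Gm26658) and 17.2% of those of Syt12 (A930001C03Rik), and with the strand setting of the counting not given, reads of such partners cannot be told apart.

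Syt16 was the member of this group that fell in both genotypes. It was at 8.36, 9.02, 9.46, 9.93 and 9.34 CPM contralaterally and 7.18, 6.51, 7.70, 7.72 and 8.30 CPM ipsilaterally in control mice, without overlap (log2 fold change -0.30, SE 0.0975, adjusted p 0.0231). In cKO mice Syt16 was at 8.99, 7.48, 12.1, 8.84 and 11.3 CPM and 7.80, 7.62, 7.88, 8.54 and 8.09 CPM, with contralateral values of H95 and H100 above the rest (log2 fold change -0.29, SE 0.0973, adjusted p 0.0291). Its call was lost in control mice without H63, H65 or H96 (-0.29 to -0.25) and in cKO mice without H61, H95 or H100 (-0.31 to -0.19), with no filter (adjusted p 0.0550) and on the cKO libraries alone (adjusted p 0.106). Syt11, the most abundant synaptotagmin, known as a brake on endocytosis, was at 1185, 1244, 1229, 1155 and 1301 CPM contralaterally and 1257, 1264, 1251, 1224 and 1176 CPM ipsilaterally in control mice. For Syt11, the cKO values were 1187, 1078, 1096, 1296 and 1167 CPM and 1200.0, 1170.0, 1159, 1226 and 1229 CPM. It was not called in control (0.01, adjusted p 0.862) or cKO mice (0.04, adjusted p 0.557). Syt14 rose in cKO mice (log2 fold change 0.19, SE 0.0720, adjusted p 0.0464), a call lost without H63, H64, H65, H95 or H100 (0.15 to 0.20), with a term for the range of mouse numbers (adjusted p 0.0542) and on the cKO libraries alone (adjusted p 0.1). Syt13 had a mean of 3.62 ± 0.586 CPM contralaterally and 2.72 ± 0.284 CPM ipsilaterally in control mice (-0.41, adjusted p 0.0529), and it was called lower with mice as a block (-0.40, adjusted p 0.0190). Syt13 was also called lower with DESeq2, at a mean of at least 1 CPM, on the control libraries alone and without H61, H64 or H65 (-0.53 to -0.40). Syt17 was called lower in control mice without H65 (-0.33) and in cKO mice without H64 (-0.30), and Syt15 was not called.

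**Figure D4:**
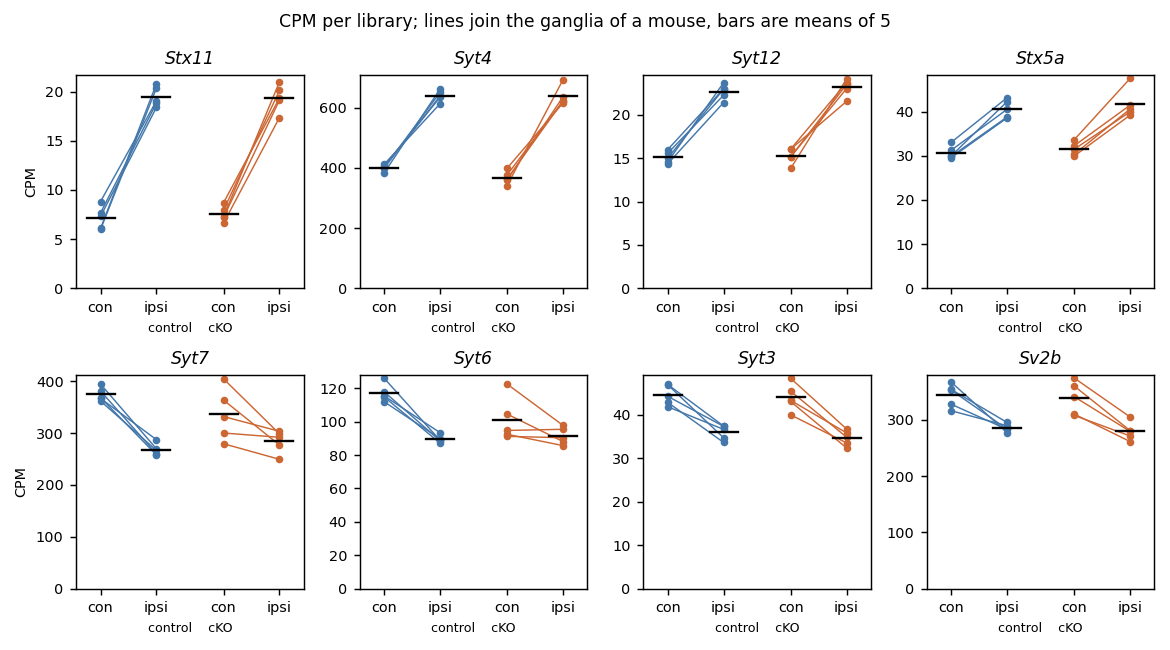
CPM of 8 members in every library, with the contralateral (con) and ipsilateral (ipsi) ganglia of a mouse joined by a line and black bars for the means of 5 (blue, control; orange, cKO; axes from 0). Stx11, Syt4, Syt12 and Stx5a rise in all 10 mice, and Syt7, Syt3 and Sv2b fall in all 10.

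Among the syntaxins of the plasma membrane, the target-membrane SNAREs of exocytosis, Stx11 rose in both genotypes, Stx1a rose in cKO mice and Stx2 fell in control mice. Stx11 (ENSMUSG00000039232.13), known for granule release by cytotoxic lymphocytes, had the largest fold change of all members. It was at 8.82, 5.99, 7.66, 7.30 and 6.08 CPM contralaterally and 19.1, 20.4, 18.8, 18.4 and 20.8 CPM ipsilaterally in control mice. In cKO mice Stx11 was at 7.95, 7.28, 8.69, 6.61 and 7.21 CPM and 20.1, 21.0, 19.3, 17.4 and 19.1 CPM. The 10 ipsilateral libraries lay from 17.4 to 21.0 CPM and the 10 contralateral ones from 5.99 to 8.82 CPM, in control (log2 fold change 1.44, SE 0.0911, adjusted p 1.26e-10) and cKO mice (log2 fold change 1.36, SE 0.0910, adjusted p 2.39e-10). Summed lymphocyte markers were at 3.96 ± 2.12 CPM contralaterally and 3.25 ± 0.701 CPM ipsilaterally in control mice, and at 3.17 ± 0.749 and 2.79 ± 0.609 CPM in cKO mice. Summed macrophage markers went from 83.4 ± 17.9 to 107.8 ± 24.8 CPM in control mice and from 102.3 ± 34.8 to 104.3 ± 27.6 CPM in cKO mice, with the sides overlapping. All 7 macrophage markers had a positive change in control mice (median log2 fold change 0.41), and 1 was called higher. In cKO mice 5 of the 7 were positive (median 0.20) and 0 were called. The part of these cells in the rise of Stx11 was not tested.

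Stx1a, a syntaxin of synaptic release, was at 43.7, 41.7, 39.5, 46.1 and 38.0 CPM contralaterally and 44.3, 43.5, 46.2, 42.9 and 43.1 CPM ipsilaterally in control mice (0.07, adjusted p 0.232). In cKO mice Stx1a was at 40.6, 38.8, 38.5, 38.8 and 41.7 CPM and 48.1, 47.5, 45.2, 44.1 and 45.7 CPM, without overlap, and it rose (log2 fold change 0.22, SE 0.0439, adjusted p 6.33e-04). The difference between the genotypes in the response of Stx1a was 0.14 (adjusted p 0.498). Stx3, a syntaxin of ribbon synapses and dendrites, was at 7.53, 7.68, 7.37, 8.21 and 7.29 CPM contralaterally and 7.47, 7.47, 8.29, 7.69 and 7.69 CPM ipsilaterally in control mice. For Stx3, the cKO values were 7.87, 7.19, 8.72, 7.03 and 8.81 CPM and 7.23, 7.60, 8.002, 7.96 and 7.29 CPM, and it was not called in either genotype. Stx2 fell in control mice (log2 fold change -0.13, SE 0.0354, adjusted p 0.00845), and Stx4a was not called. The control call of Stx2 was lost without H63 or H96 (-0.11 to -0.09). Stx1a was called higher in control mice without H96 (0.13).

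The syntaxins of endosome, Golgi and endoplasmic reticulum gave 2 risers and 2 fallers of 8 in control mice (13.8% and 16.0% of all genes) and 3 risers and 2 fallers in cKO mice (16.2% and 15.1%). Stx5a, the SNARE of transport from the endoplasmic reticulum to and through the Golgi, was at 29.6, 31.3, 29.9, 33.0 and 30.0 CPM contralaterally and 38.6, 40.5, 38.8, 43.2 and 42.3 CPM ipsilaterally in control mice. For Stx5a, the cKO values were 29.9, 33.6, 32.3, 30.3 and 31.5 CPM and 39.2, 47.5, 41.5, 40.6 and 40.0 CPM. The sides did not overlap, and it rose in control (log2 fold change 0.40, SE 0.0503, adjusted p 2.50e-06) and cKO mice (log2 fold change 0.40, SE 0.0503, adjusted p 2.24e-06). Stx7, of late endosomes, rose slightly in control (log2 fold change 0.10, SE 0.0210, adjusted p 0.00110) and cKO mice (log2 fold change 0.10, SE 0.0210, adjusted p 0.00112). Its partner Stx8 fell in control (log2 fold change -0.10, SE 0.0334, adjusted p 0.0353) and cKO mice (log2 fold change -0.11, SE 0.0334, adjusted p 0.0178). Stx16, of the trans-Golgi network, fell in control mice (log2 fold change -0.10, SE 0.0361, adjusted p 0.0465), Stx17, of autophagosomes, fell in cKO mice (log2 fold change -0.15, SE 0.0434, adjusted p 0.00915), and Stx12, of recycling endosomes, rose in cKO mice (log2 fold change 0.08, SE 0.0271, adjusted p 0.0251). Stx6 and Stx18 were not called. Control calls were lost for Stx8 without H63, H65, H95, H96 or H97 (-0.09 to -0.06) and for Stx16 without H61, H63, H65, H95, H96, H97 or H99 (-0.10 to -0.07), and with mice as a block Stx16 was not called (-0.10, adjusted p 0.0907). Under each alternative other than leaving out a mouse, DESeq2 included, Stx16 also missed the threshold (adjusted p 0.0515 to 0.175). Stx8 was not called in control mice with RLE size factors, or in either genotype with no filter or on that genotype's libraries alone (adjusted p 0.0664 to 0.206). The cKO calls were lost for Stx8 without H64 or H95 (-0.09), for Stx12 without H64, H95 or H100 (0.07 to 0.08) and for Stx17 without H95 (-0.13), and Stx12 was called higher in control mice without H95 or H97 (0.08 to 0.09), with DESeq2, at a mean of at least 1 CPM and on the control libraries alone.

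Of the vesicle SNAREs, none of 6 was called in control mice (29.9% of all genes) and 1, Vamp4, in cKO mice (31.3%). With DESeq2, at a mean of at least 1 CPM and on the control libraries alone Vamp3 and Vamp4 were called higher in control mice, Vamp3 also with RLE size factors, and 2 of the 6 had an unadjusted p under 0.05 there, beside 38.6% of all genes. Vamp2, the main v-SNARE of synaptic vesicles, was at 510.5, 535, 505, 496 and 530.1 CPM contralaterally and 512, 512, 528, 515 and 496 CPM ipsilaterally in control mice. For Vamp2, the cKO values were 492, 459, 492, 510.4 and 496 CPM and 503, 499, 500.1, 509.7 and 513 CPM. Its log2 fold change was -0.01 in control and 0.04 in cKO mice, each with an SE of 0.0297. Vamp1, the form of fast motor and sensory terminals, was at 479, 547, 532, 513 and 564 CPM contralaterally and 515, 554, 510.3, 514 and 515 CPM ipsilaterally in control mice. In cKO mice Vamp1 was at 545, 519.9, 467, 577 and 504 CPM and 510.5, 477, 473, 509 and 482 CPM, and it was not called in control (-0.02, adjusted p 0.861) or cKO mice (-0.09, adjusted p 0.173). Vamp3, of recycling endosomes, had non-overlapping sides in control mice (0.23, adjusted p 0.0534) and was called there with mice as a block (0.23, adjusted p 0.0127) and without H64, H95 or H99 (0.23 to 0.25). Vamp4, of the trans-Golgi network, rose in cKO mice (log2 fold change 0.08, SE 0.0285, adjusted p 0.0299), a call lost without H95 or H100 (0.07 to 0.09) and on the cKO libraries alone (adjusted p 0.0526), and was called in control mice without H95 or H99 (0.07 to 0.09). Vamp5 and Vamp8 were not called.

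Of the 4 Snap genes, 1 fell in control mice (16.0% of all genes), and 1 rose and 1 fell in cKO mice (16.2% and 15.1%). Snap25, the neuronal target SNARE of synapses, was at 916, 1050.0, 1012, 952 and 1064 CPM contralaterally and 979, 1037, 983, 950.0 and 943 CPM ipsilaterally in control mice (-0.03, adjusted p 0.6995). In cKO mice Snap25 was at 1045, 1041, 934, 1109 and 1013 CPM and 964, 878, 898, 953 and 948 CPM, lower ipsilaterally in 5 of 5 mice (log2 fold change -0.15, SE 0.0473, adjusted p 0.0207). Its difference between the genotypes was -0.12 (adjusted p 0.559). Snap23, the form of other cells, was at 9.40, 7.13, 6.67, 7.79 and 6.31 CPM contralaterally and 9.86, 8.26, 6.03, 9.55 and 9.71 CPM ipsilaterally in control mice. For Snap23, the cKO values were 7.54, 10.5, 10.04, 5.38 and 9.82 CPM and 7.40, 8.64, 8.92, 7.54 and 8.92 CPM, a wide scatter with no call in either genotype. Snap47 fell in control mice (log2 fold change -0.13, SE 0.0351, adjusted p 0.00670), and Snap29, of autophagosome fusion, rose in cKO mice (log2 fold change 0.15, SE 0.0430, adjusted p 0.0129). Calls were lost for Snap47 in control mice without H97 (-0.10), and in cKO mice for Snap25 without H64 or H99 (-0.12) and on the cKO libraries alone (-0.13, adjusted p 0.0826), and for Snap29 without H61 or H64 (0.11 to 0.14). In cKO mice Snap47 was called lower with mice as a block (-0.09, adjusted p 0.0275), at a mean of at least 1 CPM and without H64 (-0.09). Exons of Jmjd4 on the opposite strand overlap 11.6% of the exon bases of Snap47.

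Of the complexins tested, Cplx2 fell in both genotypes and Cplx1 in neither (16.0% of all genes fell in control and 15.1% in cKO mice). Cplx1 was at 814, 908, 850.2, 823 and 913 CPM contralaterally and 835, 929.9, 883, 881 and 840.0 CPM ipsilaterally in control mice (0.02, adjusted p 0.806). For Cplx1, the cKO values were 892, 856, 801, 953 and 851 CPM and 893, 814, 812, 871 and 855 CPM (-0.04, adjusted p 0.607). Cplx2 was at 368, 398, 384, 386 and 403 CPM contralaterally and 326, 344, 362, 346 and 359 CPM ipsilaterally in control mice, without overlap (log2 fold change -0.16, SE 0.0532, adjusted p 0.0274). In cKO mice Cplx2 was at 414, 340.0, 345, 423 and 394 CPM and 356, 332, 334, 368 and 345 CPM, with overlap (log2 fold change -0.14, SE 0.0532, adjusted p 0.0442). Its call was lost in control mice without H62, H63, H96 or H97 (-0.16 to -0.13) and in cKO mice without H61, H63, H65, H96, H97, H99 or H100 (-0.14 to -0.12). With no filter it was called in neither genotype (adjusted p 0.0721 in control and 0.142 in cKO mice), and on the cKO libraries alone the adjusted p was 0.189. Whether Cplx1 and Cplx2 responded differently from each other was not tested.

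The synapsins, which tether vesicles to the actin cytoskeleton, gave 1 faller of 3 in control mice, Syn2 (16.0% of all genes fell), and no call in cKO mice (31.3% of all genes called). Syn1 was at 423, 471, 458, 428 and 474 CPM contralaterally and 437, 447, 431, 450.4 and 429.5 CPM ipsilaterally in control mice (-0.04, adjusted p 0.675). For Syn1, the cKO values were 419, 384, 384, 496 and 394 CPM and 428, 452, 432, 461 and 466 CPM (0.11, adjusted p 0.150), called higher without H99 (0.17). Syn2 was at 219, 230.0, 229, 224 and 229 CPM contralaterally and 207, 204, 205, 211 and 201 CPM ipsilaterally in control mice, without overlap (log2 fold change -0.14, SE 0.0437, adjusted p 0.0217). In cKO mice Syn2 was at 214, 183, 214, 229 and 227 CPM and 199, 208, 201, 216 and 213 CPM (-0.04, adjusted p 0.531). The control call of Syn2 was lost without H63, H65, H96 or H97 (-0.14 to -0.11), and in cKO mice it was called lower without H64 (-0.09). Syn3 was at 71.3, 77.5, 59.6, 62.5 and 69.5 CPM contralaterally and 77.1, 81.8, 63.5, 75.5 and 80.1 CPM ipsilaterally in control mice (0.15, adjusted p 0.464). For Syn3, the cKO values were 69.5, 112, 106, 63.6 and 102 CPM contralaterally, with H64, H95 and H100 high, and 64.7, 76.2, 71.2, 68.3 and 83.2 CPM ipsilaterally (-0.32, adjusted p 0.0890). In cKO mice it was called lower with mice as a block (-0.29, adjusted p 0.0246), with DESeq2 and without H99 (-0.40). Timp3, a matrix protease inhibitor gene inside Syn3 on the opposite strand at 270.7 CPM, overlaps 14.1% of the exon bases of Syn3, so the counts of Syn3 may hold its reads.

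The SV2 genes gave 2 fallers of 3 in control mice (16.0% of all genes), and 1 riser and 1 faller in cKO mice (16.2% and 15.1%). Sv2b was at 316, 354, 353, 328 and 367 CPM contralaterally and 289.5, 295, 284, 283 and 277 CPM ipsilaterally in control mice. For Sv2b, the cKO values were 360.2, 308, 310.3, 374 and 341 CPM and 281, 271, 261, 305 and 279.5 CPM. The sides did not overlap in either genotype, and it fell in control (log2 fold change -0.27, SE 0.0532, adjusted p 5.66e-04) and cKO mice (log2 fold change -0.28, SE 0.0532, adjusted p 3.80e-04). Sv2a, the binding site of the antiseizure drug levetiracetam, was at 67.5, 73.1, 76.9, 68.8 and 76.2 CPM contralaterally and 61.3, 61.2, 57.6, 62.2 and 60.2 CPM ipsilaterally in control mice, without overlap (log2 fold change -0.26, SE 0.0735, adjusted p 0.0102). In cKO mice Sv2a was at 66.7, 56.0, 73.2, 79.4 and 77.2 CPM and 58.7, 59.2, 59.2, 69.4 and 66.7 CPM (-0.17, adjusted p 0.0853), called lower with mice as a block (-0.16, adjusted p 0.0286) and without H64 (-0.22). Its control call was lost without H65 or H97 (-0.23 to -0.21). Sv2c, the most abundant of the family here, was at 772, 797, 835, 717 and 870.2 CPM contralaterally and 827, 819, 808, 830.2 and 792 CPM ipsilaterally in control mice (0.03, adjusted p 0.828). In cKO mice Sv2c was at 764, 606, 609, 883 and 669.6 CPM and 755, 873, 822, 860.1 and 814 CPM, with H64, H95 and H100 low contralaterally (log2 fold change 0.22, SE 0.0798, adjusted p 0.0382). That rise was lost without H62, H64, H95 or H100 (0.15 to 0.22) and when fitted on the cKO libraries alone (adjusted p 0.1002) or with no filter (adjusted p 0.0886), and its difference from control was 0.19 (adjusted p 0.570).

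Of the Rab3 GTPases, 2 of 4 fell in control mice (16.0% of all genes) and 1 in cKO mice (15.1%). Rab3a, the main Rab3 of neurons, was at 359, 409.8, 391, 367 and 398 CPM contralaterally and 348, 358, 352, 363 and 335 CPM ipsilaterally in control mice (log2 fold change -0.13, SE 0.0447, adjusted p 0.0304). In cKO mice Rab3a was at 370.3, 372, 377, 421 and 380.3 CPM and 341, 315, 326, 362 and 349 CPM, without overlap (log2 fold change -0.18, SE 0.0447, adjusted p 0.00338). Rab3c was at 526, 528, 522, 492 and 562 CPM contralaterally and 510.3, 498, 494, 473 and 488 CPM ipsilaterally in control mice (-0.09, adjusted p 0.158). For Rab3c, the cKO values were 505, 432, 469, 556 and 481 CPM and 475, 482, 488, 489.9 and 469 CPM (-0.02, adjusted p 0.773). Rab3d, known from secretory granules of exocrine cells, fell in control mice without overlap, from 219 ± 1.48 to 199 ± 8.41 CPM (log2 fold change -0.14, SE 0.0286, adjusted p 6.85e-04). In cKO mice it was called lower with mice as a block (-0.08, adjusted p 0.0440), with DESeq2, at a mean of at least 1 CPM and without H65 (-0.07). The control call of Rab3a was lost without H63, H65, H95 or H97 (-0.11 to -0.09) and with no filter (adjusted p 0.0537). Rab3b was not called.

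The genotypes were then compared on each side, by their labels. Ahr itself was not called between them on either side: ipsilaterally it was at 34.4 ± 2.86 CPM in control and 31.9 ± 2.94 CPM in cKO ganglia (-0.11, adjusted p 1). Counts per gene give no value for the floxed part alone. On the contralateral side 1 member, Syt9 (ENSMUSG00000062542.12), was called (0.0735% of all genes; 0.0245% higher and 0.0490% lower). Its cKO libraries, at 194, 176, 181, 199.8 and 183 CPM, all lay below its control libraries, at 224, 214, 209.9, 211 and 209.6 CPM, a fall of 0.20 on the log2 scale (SE 0.0309, adjusted p 0.0142). On the ipsilateral side the means were 197 ± 3.95 CPM in control and 198 ± 1.45 CPM in cKO mice. The call was lost without H63, H95, H97 or H100 (-0.19 to -0.17) and when fitted on the 10 contralateral libraries alone (-0.18, adjusted p 0.384). Ranges did not overlap for 3 members (1.52% of all genes; 0.448% higher and 1.07% lower), each lower in cKO mice: Syt9, Rab3d (-0.09, adjusted p 0.135) and Stx2 (-0.12, adjusted p 0.121). At an unadjusted p under 0.05 stood 14 members, 11 lower and 3 higher in cKO mice, 26.9% of the tested members beside 17.5% of all genes. Over all genes 2721 were lower and 2285 higher at that threshold. At 5 CPM or more the shares were alike, 25.5% of 47 members (11 lower, 1 higher) and 25% of all such genes (2141 lower, 1323 higher). By DESeq2 3 members were called, Syt9, Syt6 (-0.21, adjusted p 0.0361) and Syn3 (0.42, adjusted p 0.0301), among 1030 genes in all (4.7% of those given an adjusted p). The contralateral cKO libraries also enter the injury comparison in cKO mice, so that a low contralateral level and a smaller fall after injury are the same measurement in part.

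How many members were called contralaterally rested on mouse H99. Without mouse H99, 14 of 52 members were called contralaterally, among 3326 genes in all (11.5%, a share not split here by direction or level). Then 10 were lower in cKO mice: Syt6 (-0.29), Sv2c (-0.27), Syt1 (-0.26), Syt7 (-0.23), Syt9 (-0.22), Syt14 (-0.20), Syn1 (-0.19), Rab3c (-0.16), Syt4 (-0.15) and Stx2 (-0.13), in log2 fold changes. The 4 higher ones were Syn3 (0.52), Vamp5 (0.39), Vamp8 (0.32) and Vamp3 (0.25). The counts of Syn3 may hold reads of Timp3, which overlaps 14.1% of the exon bases of Syn3 on the opposite strand. In its contralateral library H99 had the highest cKO value of Syt1, Syt2, Syt4, Syt6, Syt7, Syt9, Syn1, Sv2c and Rab3c, and the lowest of Syn3. The summed fibroblast markers of the contralateral cKO libraries were 835 CPM in H61, 1733 in H64, 1608 in H95, 802.6 in H99 and 1339 in H100, so that H99 was lowest there, within the control range of 666.8 to 1198 CPM. All 6 fibroblast markers had a positive difference between genotypes contralaterally, with a median of 0.81. None was called, and 5 of the 6 had an unadjusted p under 0.05 (83.3%, beside 17.5% of all genes). Summed macrophage markers were at 73.4 CPM in H61, 151.0 in H64, 113.2 in H95, 64.2 in H99 and 109.8 in H100. Among these libraries H99 was also lowest for summed neutrophil (17.7 CPM) and erythroid markers (271.6 CPM). Summed sensory neuron markers were at 14180 CPM in H61, 13840 in H64, 13120 in H95, 15250 in H99 and 14060 in H100, so that H99 was highest there. The part of these cells in the differences was not tested.

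**Figure D5:**
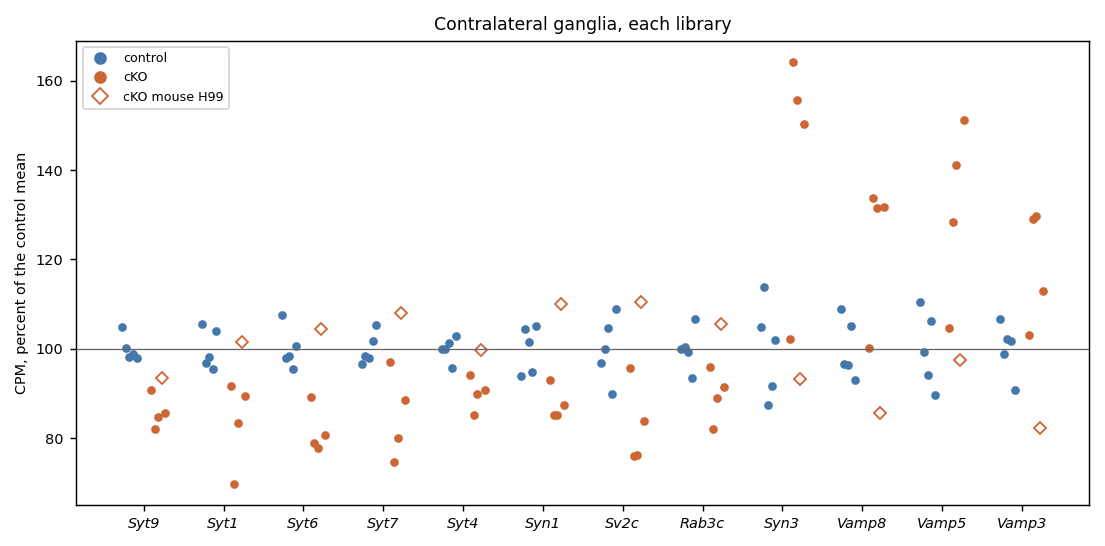
CPM of 12 members in each contralateral library, as a percent of the control mean (blue, control; orange, cKO; open diamond, cKO mouse H99). For Syt1, Syt6, Syt7, Syn1, Sv2c and Rab3c the diamond stands above the other 4 cKO libraries, and for Syn3, Vamp3, Vamp5 and Vamp8 below them.

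On the ipsilateral side no member was called in edgeR, and none had an unadjusted p under 0.05, beside 2.36% of all genes; DESeq2 called none. The background of calls was 0.00700%, or 2 genes, 0.00350% in each direction. Ranges overlapped for all 52 members, while 0.599% of all genes did not overlap (0.364% higher and 0.235% lower). The genotypes differed on this side by -0.09 to 0.33 on the log2 scale over the members. For the difference between the injury responses, no member was called in edgeR (0 of 28564 genes). An unadjusted p under 0.05 was found for 11 members, 10 positive and 1 negative, beside 9.80% of all genes (1521 positive, 1278 negative). At 5 CPM or more it was 21.3% of 47 members and 13.7% of all such genes (1122 positive, 774 negative). DESeq2 called 1 member, Syt9 (0.19, adjusted p 0.0176). Syt9 had the smallest p of the members in edgeR (0.20, SE 0.0438, adjusted p 0.485), and without H99 it was called (0.23, adjusted p 0.0459). The response of Syt9 ran from -0.20 to -0.04 in the 5 control mice and from -0.03 to 0.18 in the 5 cKO mice.

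Other genes of vesicle release, outside the symbol families, were counted from a list of 88, of which 86 were tested. In control mice 18 rose and 25 fell after injury, and in cKO mice 23 rose and 16 fell. The 43 called in control mice (50%) stand beside 29.9% of all genes and 43.5% of those at 5 CPM or more, and the 39 called in cKO mice (45.3%) beside 31.3% and 45.5%. Of the called genes, the largest changes in control mice were those of Sytl3, a Rab27 effector of the synaptotagmin-like family (0.82, SE 0.0418, adjusted p 4.21e-12), of Doc2b, a calcium sensor of spontaneous and asynchronous release (0.79, SE 0.157, adjusted p 5.36e-04), and of Rab27b, a GTPase of secretory granules (-0.73, SE 0.0704, adjusted p 1.13e-07). In cKO mice the largest called changes were those of Sytl3 (0.88, SE 0.0418, adjusted p 1.09e-12), its relative Sytl2 (0.61, SE 0.0503, adjusted p 6.77e-09) and Rims4, a small active zone protein (0.58, SE 0.0852, adjusted p 1.88e-05). Sytl3 went from 25.6 ± 0.994 to 45.1 ± 1.74 CPM in control mice. Between genotypes 1 of the 86 was called on each side, beside 0.0735% of all genes contralaterally and 0.00700% ipsilaterally. It was Cadps, which primes dense-core vesicles, at 602 ± 18.5 CPM in control and 299.7 ± 30.8 CPM in cKO contralateral ganglia (-1.01, SE 0.0506, adjusted p 2.75e-10). Ipsilaterally Cadps was at 595 ± 23.2 and 320.5 ± 5.77 CPM (-0.89, SE 0.0505, adjusted p 2.66e-09).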

How the data were processed

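RNA was sequenced from the L4 to L6 ganglia of 10 mice on both sides, 20 libraries in 4 groups of 5, prepared with a stranded mRNA kit and sequenced from both ends at 150 bp. The deposited table holds the authors' whole-number exonic counts per gene, with no normalization. HISAT2, Picard, mm10 and mm39 are named, without roles, per the submitters' processing notes; the counting program, annotation and strand setting are not given in the sources used here. The deposited FPKM table was not used.

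Symbols came from GENCODE M21 (51487 of 78258 identifiers, 98.1% of counts). Counts were filtered with filterByExpr (minimum count 10, total 15), scaled by TMM and fitted in edgeR 4.0.16 (R 4.3.3) with 1 mean per group over 20 libraries; the robust quasi-likelihood F-test was adjusted by Benjamini-Hochberg over 28564 genes. A call is an adjusted p under 0.05. CPM are TMM-normalised; per-mouse log2 values use a prior count of 2. The fit was tested on simulated data, with no result of that reported here. No column belonged to another sample.

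Contralateral and ipsilateral libraries with the same number come from the same mouse, as the labels give it; for the contralateral library of H61 the title and the library name disagree (H6 and H61), and the library name was used. Their deviations from the group means correlated with a median of 0.186 over the 10 mice (-0.0546 to 0.361; 7 mice above 0.1). Alternatives were mice as a replicate block, DESeq2 1.42.0, RLE size factors, no filter, a mean of at least 1 CPM, a fit to just the libraries compared, a term for the range of mouse numbers, and leaving out each mouse.

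Library values were given for 24 members fixed as a core and for those among the 8 largest called changes of an injury comparison, 31 in all, of which 1 is not reported here; the 3 largest of the pathway list were named, and other members were named with values where a call, or a call under an alternative, made them part of a result. The members, roles and lists were chosen with earlier results of these data known.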

Additional observations from a re-analysis of the deposited data

Results flagged for a closer look

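Within a group of 5 libraries, 1 library stood apart from the other 4 in 6 of 124 groups examined (31 members in 4 groups), where chance alone gives about 6.2, or 1 in 20. The gap to the nearest library, as a share of the group's range, exceeded Dixon's critical value of 0.71 in each. Rab3a in the contralateral ganglia of cKO mouse H99 was at 421.4 CPM, with the others at 370.3 to 380.3 CPM (gap 0.804). In cKO mouse H64, the ipsilateral library was high for Syt4, at 692 CPM against 615 to 636 CPM (0.735), and for Stx5a, at 47.5 CPM against 39.2 to 41.5 CPM (0.728). In control mouse H65, the ipsilateral library was high for Syt9, at 203.9 CPM against 194 to 196 CPM (0.781), and for Stx3, at 8.29 CPM against 7.47 to 7.69 CPM (0.733). Vamp1 in the ipsilateral ganglia of control mouse H63 was at 553.8 CPM against 510.3 to 514.9 CPM (0.894).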

How the results depend on the processing

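Of 52 tested members, 25 were called after injury in control mice (13 to 27 when each mouse was left out in turn) and 22 in cKO mice (16 to 23). Contralaterally 1 member was called between genotypes (0 to 14), ipsilaterally 0 (0 to 0), and for the difference between the injury responses 0 (0 to 1). With the replicate block the counts were 26, 28 and, for the difference, 0 (30%, 31.6% and 0% of all genes), and the calls it changed are given beside each gene. DESeq2 called 3 members contralaterally and 1 for the difference between responses, beside 4.7% and 0.136% of the genes given an adjusted p. With only the libraries compared, 14 members were called in cKO mice after injury (26.2% of all genes) and 0 contralaterally (0.00736%). No filter gave 17 and 18 calls after injury in control and cKO mice, beside 12.6% and 13.1% of the 56837 genes then tested. The cause was not tested. No called value changed sign under any setting. In each injury comparison 10 called members kept their call without any 1 mouse: Stx11, Syt4, Syt12, Stx5a, Stx7, Sv2b and Syt3 in both, with Syt6, Syt7 and Rab3d in control and Syt10, Stx1a and Rab3a in cKO mice. In the contralateral comparison, leaving out H99 alone took the count of all genes called from 21 to 3326. The lowest levels, as for Syt10, rest on the fewest counts.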
